A study of Mus musculus with 3 samples.

Results

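The Src family kinases Lyn, Yes1, Fyn, Src, Fgr, Lck and Blk were examined together with Btk, a kinase of the Tec family, and Csk, the kinase that holds the Src family in check. The genes were taken by symbol, and all 9 were found among the 24411 genes tabulated. RNA sequencing was done on microglia, the macrophages that live in brain tissue, of C57BL/6J mice aged 6 to 8 weeks. Every library belonged to 1 group, the Mir137loxP/loxP;Tmem119-CreERT2 genotype called cKO, with the label Pu.1 inhibitor as treatment, in 3 replicates. The recombinase depends on tamoxifen, which the series design places at 7 to 8 weeks of age, given daily for 7 days, and it is driven by Tmem119, a gene of microglia. The design text mentions 4 mice, and the sources used here do not say which animals entered which replicate. A p-value here thus describes these 3 samples alone, and the spread between them may be technical. The inhibitor's name, dose and route were not given there either. Microglia with intact Mir137 and knockout microglia without the inhibitor were not analysed here, so the values are levels under the combined condition and hold no effect of either.

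Src family kinases are tyrosine kinases anchored to the inner face of the plasma membrane. They phosphorylate the tyrosine motifs (ITAMs) of immune receptors and their adaptors, on which Syk then docks, and Btk acts further along by activating phospholipase C gamma. The same kinases also phosphorylate the inhibitory motifs (ITIMs) of other receptors, which recruit phosphatases. Csk switches Src family kinases off by phosphorylating a tyrosine in their carboxy-terminal tail, and the phosphatase CD45, encoded by Ptprc, removes that phosphate. In microglia and other macrophages this machinery relays signals from Fc receptors, integrins and Trem2.

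The libraries held 17180404, 15710750 and 16356125 estimated counts in replicates 1, 2 and 3, and the 9 kinases together took between 0.1036 and 0.1044% of them. All 10 microglial marker genes were detected, here meaning that each library reached an FPKM of 1 (FPKM being fragments scaled by transcript length and by library size). Genes of neutrophils, monocytes and endothelial cells were detected as well, so a transcript could come from more than one cell type. Fewer cells of a type and less RNA per cell cannot be told apart in such bulk samples.

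Of the 9 kinases, 7 were detected, and the exceptions were Lck and Blk. Over all 24411 genes 47.8% were detected. The order of mean FPKM was Lyn, Csk, Btk, Yes1, Fyn, Src, Fgr, Lck and Blk. The median of log2(FPKM + 1) over the 9 genes was 3.46 ± 0.04 (SD, n = 3). Over all genes it was 0.96, 0.97 and 0.93 in replicates 1, 2 and 3, and over detected genes 3.82, 3.81 and 3.82. The set thus ran from the most abundant few percent of genes to the limit of detection, with its median a little under that of detected genes.

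**Figure D1:**
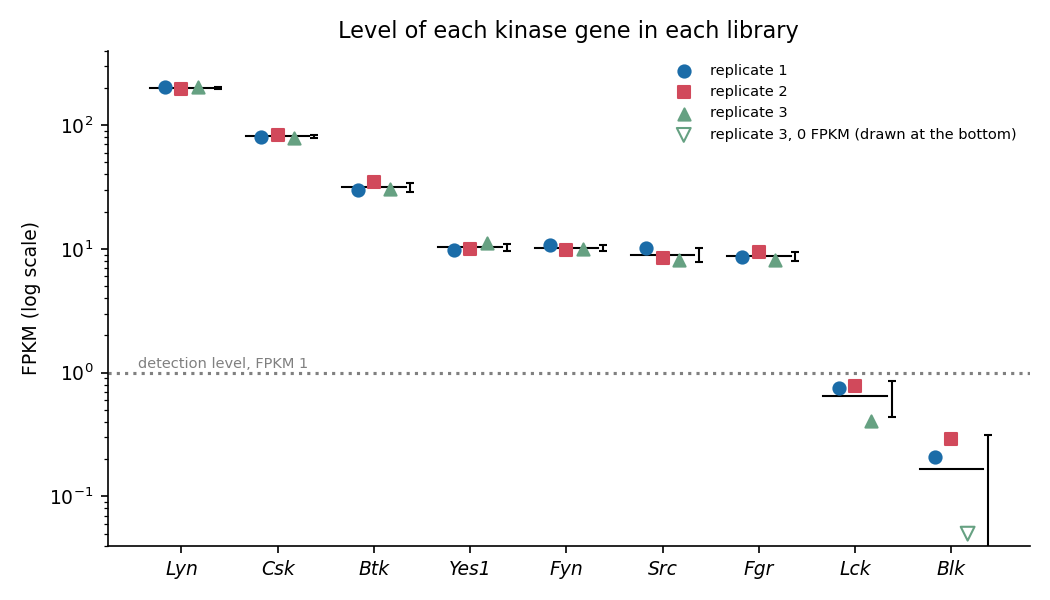
FPKM of each kinase gene (log scale) in replicates 1, 2 and 3, with genes in the order of their mean. Horizontal lines are means and the bars beside them 1 SD (n = 3), the bar of Blk running off the bottom of the axis. Lyn, Csk and Btk stand apart, Yes1, Fyn, Src and Fgr lie between 8.11 and 11.14 FPKM, and Lck and Blk lie under 1 FPKM.

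Lyn was the most abundant of the set. It is a kinase of myeloid cells and B cells that can phosphorylate activating as well as inhibitory receptors. It lies on the plus strand of chromosome 4 (GRCm38, 3678115 to 3813122), and the longest of its 2 annotated protein-coding transcripts has 13 exons. Lyn was at 202.27, 195.47 and 203.29 FPKM in replicates 1, 2 and 3, with 10969, 9686 and 10493 estimated counts. The lowest and highest libraries differed by 1.04 times. The mean of 200.3 ± 4.25 FPKM (SD, n = 3) placed it at rank 381 of all genes, with 1.56% of genes higher. The alternatively spliced forms of Lyn were not separated in these gene tables.

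Csk followed Lyn. Its gene is on the minus strand of chromosome 9 (57626646 to 57653631). The level of Csk was 81.04, 84 and 78.85 FPKM in replicates 1, 2 and 3, with 3434, 3253 and 3183 estimated counts. Its mean was 81.3 ± 2.58 FPKM (SD, n = 3), rank 966, and every library lay below every value of Lyn. Lyn exceeded Csk by 2.47 ± 0.128 times within a library (SD, n = 3).

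Btk, the kinase mutated in human X-linked agammaglobulinaemia, was next. It lies on the minus strand of chromosome X (134542336 to 134583570). Btk was at 29.71, 34.76 and 30.48 FPKM in replicates 1, 2 and 3, with 1151, 1230 and 1124 estimated counts, and its mean was 31.65 ± 2.72 FPKM (SD, n = 3). Replicate 2 was the highest library for Btk, and replicates 1 and 3 lay close together. The ratio of Btk to Csk within a library was 0.389 ± 0.0237 (SD, n = 3).

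Yes1, Fyn, Src and Fgr followed at nearly equal levels, with means between 8.74 and 10.3 FPKM. Yes1, Fyn and Src are expressed in many tissues, whereas Fgr is known from neutrophils, monocytes and macrophages. Yes1 (chromosome 5, 32611171 to 32687057, plus strand) was at 9.74, 10.08 and 11.14 FPKM in replicates 1, 2 and 3, a mean of 10.3 ± 0.73 (SD, n = 3). Fyn (chromosome 10, 39368855 to 39565381, plus strand) was at 10.75, 9.72 and 10.06 FPKM, a mean of 10.2 ± 0.525 (SD, n = 3). These 2 genes exchanged places between libraries, Fyn being higher in replicate 1 and Yes1 in replicates 2 and 3. Src (chromosome 2, 157418444 to 157471862, plus strand) was at 10.27, 8.5 and 8.16 FPKM, a mean of 8.98 ± 1.13 (SD, n = 3). Fgr (chromosome 4, 132974095 to 133001910, plus strand) was at 8.61, 9.51 and 8.11 FPKM, a mean of 8.74 ± 0.709 (SD, n = 3). Src was higher than Fgr in replicates 1 and 3 and lower in replicate 2. Replicate 1 stood above the other libraries for Src.

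The length estimate of Yes1 also varied between libraries. The effective length, the length over which a count was divided, followed from the ratio of count to FPKM, and for Yes1 it ran from 3924 nt at its lowest to 4048 nt at its highest. For Fyn it ran from 3241 to 3245 nt, for Src from 3587 to 3589 nt and for Fgr from 3059 to 3062 nt. Yes1 had 670, 641 and 715 estimated counts in replicates 1, 2 and 3. GENCODE M21 lists 4 protein-coding transcripts of Yes1 of 1403 to 4586 nt, and the division of reads between them was not given in these tables. On the opposite strand, an annotated locus overlaps 635 nt of Yes1 exons and another overlaps 248 nt of Lyn exons. Strand was not stated for the counting, so reads of these loci cannot be told apart from those of Yes1 and Lyn.

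In the order of levels, 5 of 8 neighbouring pairs had ranges over the libraries that did not overlap: Lyn and Csk, Csk and Btk, Btk and Yes1, Fgr and Lck, and Lck and Blk. The ranges overlapped for Yes1 and Fyn, for Fyn and Src, and for Src and Fgr. Btk exceeded Yes1 by 3.08 ± 0.357 times and Fgr exceeded Lck by 14.5 ± 4.6 times (SD, n = 3). Fyn exceeded Src in 3 of 3 libraries, by 1.14 ± 0.0931 times. Fgr lay below Yes1 and below Fyn in 3 of 3 libraries with no overlap of ranges, at ratios of 0.852 ± 0.111 and 0.862 ± 0.101 (SD, n = 3). The log2 ratios within libraries were tested by flipping their signs in every combination, an exact two-sided permutation test, which gave p = 0.25 for Lyn and Csk, Csk and Btk, Btk and Yes1, Fyn and Src, and Fgr and Lck, the smallest that 3 libraries allow. The same exact test gave p = 0.75 for Yes1 and Fyn and for Src and Fgr. Adjusted over the 7 pairs with a ratio in every library, these exact p-values were 0.35 and 0.75, so no pair could pass a threshold of 0.05.

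Lck and Blk were near the limit of detection. Lck relays the T cell receptor signal and is also found in NK cells, and Blk is a kinase of B cells. Lck (chromosome 4, 129548344 to 129573641, minus strand) was at 0.75, 0.78 and 0.41 FPKM in replicates 1, 2 and 3. Its estimated counts were 23, 22 and 12, with exact Poisson 95% intervals of 14.6 to 34.5, 13.8 to 33.3 and 6.2 to 21.0, which cover counting error only. Replicate 3 had the lowest count, and its interval overlapped those of the other libraries. Blk (chromosome 14, 63372836 to 63417037, minus strand) was at 0.21, 0.29 and 0 FPKM, from 8, 10 and 0 estimated counts. The exact Poisson 95% interval of the 0 in replicate 3 reached up to 3.69 counts.

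Most markers of lymphocytes were at similarly low levels. Of 14 T cell and NK cell genes 3 were detected, and their summed level was 20.0, 23.2 and 16.0 CPM (counts scaled to the library total) in replicates 1, 2 and 3. The list's median of log2(FPKM + 1) was 0.47 ± 0.25 (SD, n = 3). Its highest members were the granzyme gene Gzma at 10.2 ± 3.07, Nkg7, a granule protein gene of cytotoxic cells, at 3.89 ± 0.887 and Cd4 at 1.88 ± 0.265 FPKM, and the lowest was Themis at 0.0267 ± 0.0153 FPKM (SD, n = 3). Of the T cell receptor chain genes, Cd3e had 10, 4 and 1 estimated counts, Cd3g 9, 6 and 0 and Cd3d 7, 0 and 5. Cd247 had 0, 42.79 and 2, and was thus highest in replicate 2. These chain genes were chosen after their values were seen. Over the list, 8 of 14 genes were lowest in replicate 3, as were Lck and the summed list, while 3 were lowest in replicate 2, 2 in replicate 1 and 1 was tied. Cd4 was highest in replicate 3, with 95, 70 and 96 estimated counts. The part of lymphocytes in the Lck counts was not tested.

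Of 9 measured B cell genes 2 were detected, Cd79b at 16.4 ± 2.96 and Ebf1 at 6.08 ± 0.768 FPKM (SD, n = 3). The others were under 1 FPKM on average, from Fcmr at 0.61 ± 0.161 to Cr2 at 0.0367 ± 0.0473 FPKM, and the list's median of log2(FPKM + 1) was 0.40 ± 0.12. Pax5, a B cell transcription factor gene chosen after its values were seen, had 0, 0 and 2 estimated counts. The summed level of the list was 42.5, 47.5 and 54.3 CPM in replicates 1, 2 and 3. It was thus highest in replicate 3, the library in which Blk had no count, and 5 of the 9 genes were highest there. The part of B cells in the Blk counts was not tested.

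**Figure D2:**
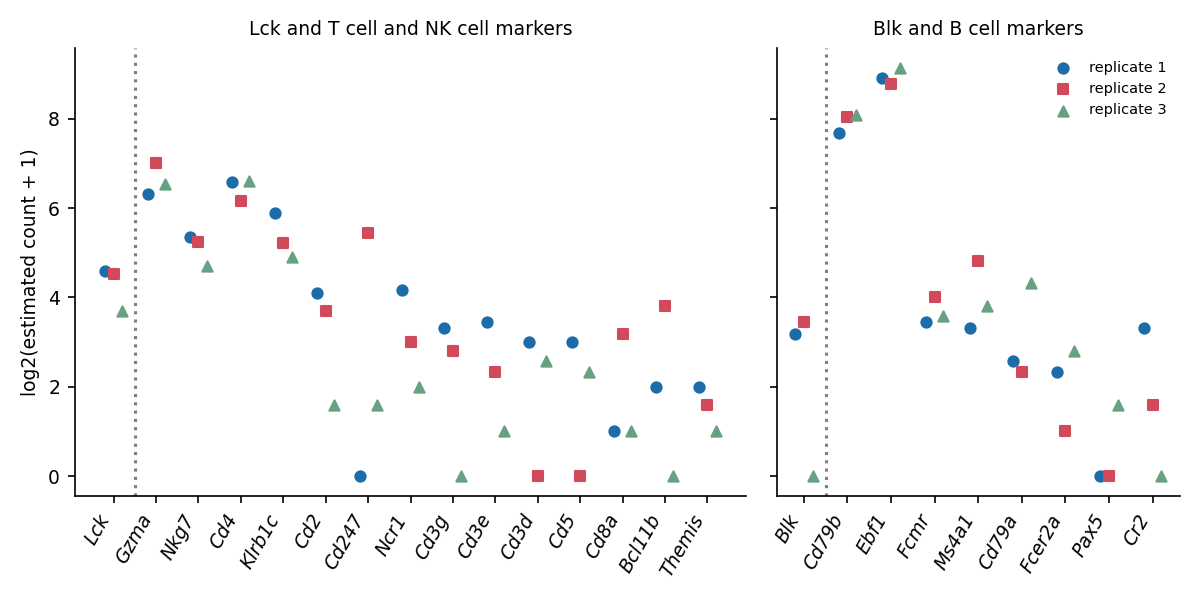
Estimated counts, as log2(count + 1), of Lck beside T cell and NK cell markers (left) and of Blk beside 8 B cell markers (right) in replicates 1, 2 and 3. Lck with 23, 22 and 12 counts and Blk with 8, 10 and 0 counts lie among the markers, most of which have few counts; Cd79b and Ebf1 stand above the other B cell markers.

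Because the samples carried the label of an inhibitor of Pu.1, a transcription factor of the ETS family, the promoters of the kinases were searched for purine-rich cores of the kind that ETS factors bind. The core GAGGAA, which Pu.1 favours, was taken for display after 6 cores had been counted, so its share here is not evidence of an excess. RefSeq promoter windows (GRCm38.p6, 250 bases before to 50 after the start) were on hand for 7 of the 9 genes, in 9 windows, and those of Lyn and Blk were not used here. GAGGAA was present on either strand in 6 of the 9 windows, of 5 genes, and in 28.3% of all 32851 windows. The shorter core GGAA, which lies within all the others, was in 8 of the 9 windows, of 6 genes, and in 96.0% of all windows. The longer GAGGAAG was in 5 windows of 5 genes (13.6% of all) and AGAGGAA in 2 of 2 genes (10.4% of all). Both hold the displayed core. The core GGAAGT was in 3 of the 9 windows, of 2 genes (23.8% of all). AGGAAGT, which holds it, was in 2 windows of 1 gene, Lck (9.35% of all). Fyn and Yes1 had no GAGGAA in these windows. One match per gene is printed with the 12 bases on each side, read on the strand of the gene, so that the core (in capitals) can be seen in its place. TTCCTC is the same core on the opposite strand. The position given is that of the first capital, counted from the start as base 1.
Csk, chr9:57653749-57653778, position -135: ccctgccactcgGAGGAAtcactaagcggc
Btk, chrX:134583114-134583143, position 10: ctcagactgtccTTCCTCtctggactgtaa
Src, chr2:157424173-157424202, position -108: ccgggtccgcgcTTCCTCctttctccggct
Fgr, chr4:132974114-132974143, position 32: gtccgagacggcTTCCTCctccctccccag
Lck, chr4:129573798-129573827, position -174: tcacacacagccTTCCTCcctaagtgcctc
The alternative promoter of Csk held 3 more matches, at positions -183, -67 and 37. Lck had 1 match over all its windows. Any relation of the core to the level of a gene was not tested. A match is a description of the letters and not a measured binding site.

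Among the 7 Src family genes examined, which are not the whole family, Lyn had most of the summed level. They summed to 242.60, 234.35 and 241.17 FPKM in replicates 1, 2 and 3, and Lyn made up 83.4, 83.4 and 84.3% of that sum. Yes1, Fyn, Src and Fgr together made up 16.0 ± 0.375% (SD, n = 3), with 4.31, 4.25, 3.75 and 3.66% each on average. Lyn exceeded the sum of those 4 genes by 5.24 ± 0.158 times. Lck took 0.271 ± 0.088% and Blk 0.0701 ± 0.0635% of the sum (SD, n = 3).

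The summed 7 genes exceeded Csk by 2.95 ± 0.14 times within a library (SD, n = 3), and the exact sign-flip test gave p = 0.25 for that ratio and for Btk to Csk, the smallest possible.

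**Figure D3:**
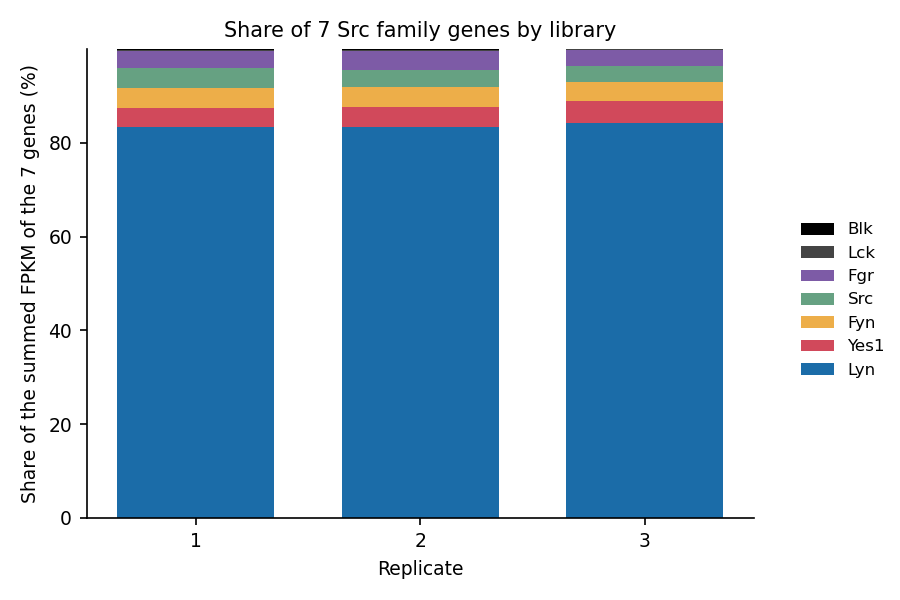
Share of the summed FPKM of Src family genes (%) taken by each gene in replicates 1, 2 and 3, over the 7 genes examined. Lyn takes 83.4 to 84.3%, and Yes1, Fyn, Src and Fgr take most of the rest.

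The spread of the kinases between libraries, as SD over mean FPKM, followed their order of level only in part. The SD of FPKM was 2.12% of the mean for Lyn, 3.18% for Csk and 5.16% for Fyn, and it was 7.08% for Yes1, 8.11% for Fgr and 8.60% for Btk. It was 12.6% for Src, 31.8% for Lck and 89.9% for Blk, which had no count in replicate 3. The coefficient of variation estimated by edgeR, which is the spread beyond counting error and is drawn towards the trend of genes of like abundance, was 0.0488 for Lyn, 0.0508 for Csk and 0.0646 for Btk. It was 0.0705 for Yes1, 0.0753 for Fyn, 0.0833 for Src and 0.0837 for Fgr, against 0.0827 for all genes in common. For Lck it was 0.233, so this coefficient rose step by step as the level fell. Blk had too few counts to be kept. A chi-square test asked whether a gene's counts differed between the libraries by more than counting error, with Benjamini-Hochberg adjustment over the 13246 genes tested. It called 3 of the 8 kinases tested and 41.4% of all genes, so the share among the kinases was near that of genes in general. With replicate 1, 2 or 3 left out, the test called 28.2, 18.6 and 23.5% of all genes.

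The kinases called were Src (adjusted p = 0.00111), Btk (adjusted p = 0.00111) and Lyn (adjusted p = 0.0407). For Src the call rested on replicate 1, the highest library, and without it the adjusted p was 0.652. The call for Btk rested on replicate 2, and without that library the adjusted p was 0.743. For Lyn the adjusted p was 0.898 without replicate 2 and 0.0603 without replicate 3. Csk (adjusted p = 0.0708) was not called, and without replicate 1 its adjusted p was 0.0313. Fgr, Yes1, Lck and Fyn had adjusted p-values of 0.107, 0.18, 0.226 and 0.33. With no filter on low counts, Blk was tested as well and was called (adjusted p = 0.0265), against 37.8% of the genes then tested. The test compares libraries of 1 group and holds no contrast of conditions.

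**Figure D4:**
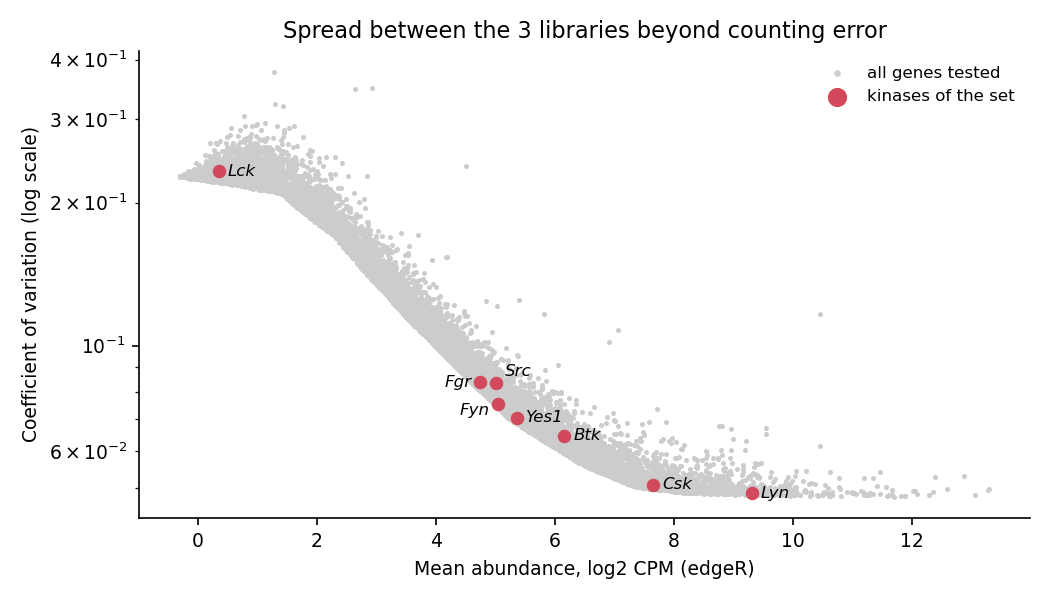
Coefficient of variation between the 3 libraries (log scale) against mean abundance (log2 CPM) for the genes tested by edgeR, with the kinases in red. The estimates are drawn towards the trend with abundance, and the kinases run from 0.233 for Lck to 0.0488 for Lyn.

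The genes that act with these kinases were described from lists grouped by role. Detection again meant an FPKM of 1 in every library, which 47.8% of all genes reached. Of the kinases most related to the Src family genes, Frk was at 0.78 ± 0.145, the Src-related kinase gene Srms at 0.467 ± 0.314 and Ptk6 at 0.103 ± 0.0513 FPKM (SD, n = 3), and these 3 were not detected. Of the 4 other Tec family kinases, Tec was at 15.8 ± 0.305 and Bmx at 13.4 ± 1.55 FPKM. Txk (0.27 ± 0.275 FPKM), known from T cells, was not detected. The list of 4 had a median of 2.12 ± 0.16 on the log2(FPKM + 1) scale, with 2 detected, and Btk exceeded Tec by 2.01 ± 0.169 times (SD, n = 3).

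In the list kept for regulators of the Src family tail tyrosine, 12 of 12 genes were detected. Their median was 4.58 ± 0.02 on the log2(FPKM + 1) scale (SD, n = 3). Whether each product acts on that tyrosine itself was not tested. Ptprc, the gene of the phosphatase CD45, was at 108.4 ± 1.96 FPKM, and Ptpn6, the gene of the phosphatase SHP-1 that docks on inhibitory receptors, at 102.1 ± 6.29 FPKM. Pag1, whose product is a membrane adaptor that recruits Csk, was at 81.77, 75.78 and 85.02 FPKM in replicates 1, 2 and 3, a range that overlapped that of Csk. Matk, the Csk-related kinase gene, was at 11.4 ± 1.14 FPKM, a gene chosen after its value was seen. The lowest was the receptor phosphatase gene Ptprf at 1.86 ± 0.155 FPKM.

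Receptors upstream had higher medians than the kinases, for which the median was 3.46 on the log2(FPKM + 1) scale. All 12 activating receptors and ITAM adaptors were detected, at a median of 8.03 ± 0.01 on the log2(FPKM + 1) scale, and the mean reached 100 FPKM in 8 of them. Csf1r, a growth factor receptor that microglia depend on, was at 2370.2 ± 54.3 FPKM, the Fc receptor gene Fcgr3 at 977 ± 42.7 and the ITAM adaptor gene Tyrobp at 962 ± 87.0 FPKM (SD, n = 3). Sirpb1a was the lowest at 2.75 ± 0.681 FPKM, with estimated counts that were not whole, as happens when reads also match a related gene. All 12 genes of the list kept for inhibitory ITIM receptors were detected, at a median of 6.05 ± 0.12. Siglech was counted in that list although its product has no ITIM of its own. Sirpa, the receptor for CD47, was at 500.1 ± 0.675, Siglech at 372 ± 5.41 and the inhibitory Fc receptor gene Fcgr2b at 259 ± 3.06 FPKM, and the lowest, Cd22, a sialic acid receptor gene of B cells, was at 3.13 ± 0.561 FPKM. Fcgr3 and Fcgr2b also had counts that were not whole.

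Downstream, 28 of 31 genes of the Syk family, adaptors and effectors were detected, at a median of 5.17 ± 0.16 on the log2(FPKM + 1) scale (SD, n = 3). Inpp5d, the gene of the lipid phosphatase SHIP1, was at 212 ± 1.29 FPKM, Sla, the gene of an adaptor that dampens receptor signalling, at 135.1 ± 0.923 and the protein kinase C gene Prkcd at 106 ± 2.66 FPKM. Lat, Sla2 and Skap1, adaptor genes known mainly from lymphocytes, were not detected, and Skap1 was the lowest at 0.187 ± 0.104 FPKM. Lat, Sla2 and Syk are named here after their values were seen, and Syk was at 47.8 ± 1.45 FPKM. Lyn exceeded Syk by 4.20 ± 0.21 times and Syk exceeded Btk by 1.51 ± 0.0808 times within a library (SD, n = 3).

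**Figure D5:**
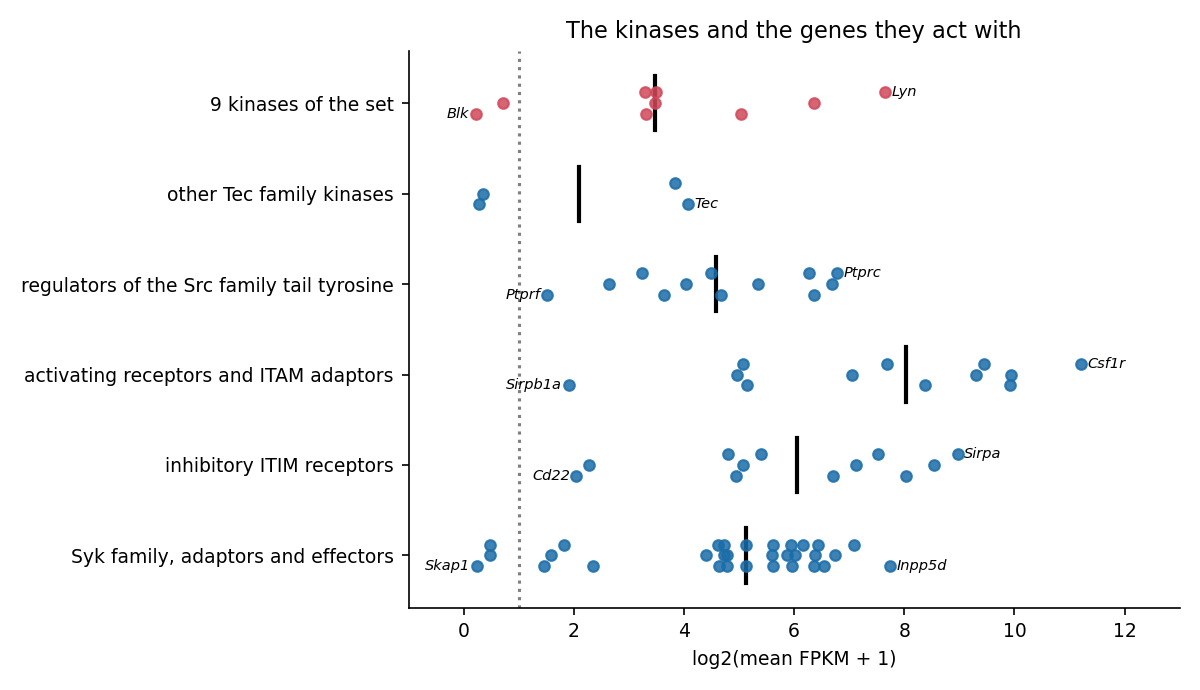
Mean level, as log2(mean FPKM + 1), of the 9 kinases (red) and of the genes of 5 lists that act with them (blue), with the median of each list as a black line and highest and lowest genes named. The dotted line marks an FPKM of 1. Activating receptors and ITAM adaptors lie highest, with a median of 8.03.

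Other cell types that use these kinases were represented in the libraries to different degrees. The microglial genes had a median of 9.43 ± 0.05 on the log2(FPKM + 1) scale (SD, n = 3), with Csf1r and, at 1608 ± 7.79 FPKM, P2ry12 among the highest and Sall1 the lowest at 134 ± 5.88 FPKM. Neutrophils, which use Fgr and Lyn, had 12 of 12 marker genes detected at a median of 6.81 ± 0.04, with S100a8 at 8800.0 ± 567, S100a9 at 4056 ± 210, Ngp at 592 ± 5.75 and Mpo at 11.7 ± 1.47 FPKM. The summed neutrophil markers were 3661, 3891 and 3704 CPM in replicates 1, 2 and 3, highest in replicate 2, which was also the highest library for Fgr and Btk. The 7 monocyte genes were all detected at a median of 5.81 ± 0.13, from 335 ± 13.3 FPKM for Chil3, 130.5 ± 21.4 for Ly6c2 and 121 ± 10.7 for Plac8 to 5.08 ± 0.362 FPKM for Itga4, and Ly6c2 and Itga4 had counts that were not whole. The summed monocyte genes were 895, 941 and 848 CPM, again highest in replicate 2. So were the summed microglial markers, at 30433, 30555 and 29773 CPM, so this order was not particular to neutrophils and monocytes. Lyn was lowest in replicate 2. The part of neutrophils and monocytes in the levels of Fgr, Lyn and Btk was not tested.

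Markers of cell types that can express Src, Fyn and Yes1 were found too. All 10 endothelial genes were detected at a median of 6.87 ± 0.02, with Ly6c1 at 1038 ± 66.6, Slc2a1 at 486 ± 8.91, Itm2a at 356 ± 20.3 and Kdr at 17.1 ± 1.03 FPKM, and the counts of Ly6c1 were not whole. Oligodendrocytes, in which Fyn acts in myelination, had 10 of 10 genes detected at a median of 4.22 ± 0.25, with Mal at 86.7 ± 2.78, Cnp at 41.2 ± 4.44 and Myrf at 1.26 ± 0.169 FPKM. The 8 astrocyte genes were detected at a median of 4.10 ± 0.21, with Slc1a3 at 101 ± 1.72, Gja1 at 32.8 ± 2.87, Aldoc at 18.7 ± 2.58 and Aldh1l1 at 2.73 ± 0.297 FPKM. Neuronal genes had a median of 0.29 ± 0.04, with 3 of 12 detected: 14.2 ± 0.917 FPKM for Stmn2, 2.80 ± 0.752 for Tubb3 and 2.47 ± 0.212 for Map2, while Nefl had no count. The summed oligodendrocyte genes were 950.4, 987 and 833 CPM, and the summed endothelial genes 3892, 4039 and 3971 CPM, in replicates 1, 2 and 3. The highest library was replicate 1 for Src and Fyn, replicate 3 for Yes1 and replicate 2 for both of these sums. The part of these cells in the levels of Src, Fyn and Yes1 was not tested.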

How the data were processed

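Total RNA of mouse microglia was measured by RNA sequencing in 3 libraries of 1 group, taken from the sample titles. The submitters' processing notes name the aligner STAR (2.7.9a), the quantifier RSEM and DESeq2, and the builds GRCm38 and mm10. Their settings, the annotation and the strand mode were, in the sources used here, not given. The authors deposited estimated counts per gene, not scaled between libraries, of which 4.07% were not whole. The authors also deposited FPKM, which divide those counts by library size and effective length. None of the 9 kinases had a count that was not whole. There were 0 columns of other samples. Coordinates are 1-based, from GENCODE M21 on GRCm38.

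Means and SDs over libraries were computed from FPKM, and lists were summarised by the median of log2(FPKM + 1), with a pseudocount of 1. Estimated counts were rounded for edgeR 4.0.16 (R 4.3.3): default filter, which left 13246 genes, TMM, and dispersions with an intercept alone. A chi-square test of homogeneity over all genes kept, given TMM library sizes, used Benjamini-Hochberg adjustment at 0.05; its code was tested on simulated data. With 1 group no contrast of conditions could be fitted. Within-library log2 ratios were compared with 0 by flipping signs, an exact two-sided permutation test. Poisson intervals are exact at 95%.

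The kinases and lists were chosen with earlier results of these data known. All 9 kinases are named, and of each list the 3 highest genes and the lowest by mean FPKM, except some genes that are not reported here; genes named beyond that rule are marked where they appear. All 75 symbols of the pathway lists and 92 of the 93 of the cell type lists were found. Ratios involving Syk and Tec were chosen after the values were seen, and the promoter motif after 6 cores had been counted. Alternatives were other pseudocounts, TPM, CPM, DESeq2 1.42.0 size factors, total counts, no filter, other detection levels and leaving out each replicate.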

Additional observations from a re-analysis of the deposited data

How the results depend on the processing

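No paired analysis was possible because the samples form 1 group. With a threshold of 10 FPKM in every library in place of 1, 3 kinases were detected in place of 7, and with 0.1 it was 8. The share of all genes is given here only for the level of 1, at 47.8%. The median level of the kinases was 3.34 and 3.33 with pseudocounts of 0.1 and 0.01, 3.54 without Lck and Blk, and on other scales 4.28 in TPM and 5.11 in TMM-normalised CPM. Leaving out 1 replicate gave medians of 3.44 to 3.48 and 7 detected kinases each time. The share of Lyn was 82.4% by estimated counts and 83.4 to 83.9% when 1 replicate was left out. The log2 ratio to Csk ran from -1.41 to -1.32 for Btk when 1 replicate was left out. For the 7 summed Src family genes it then ran from 1.53 to 1.60. From estimated counts these ratios were -1.49 and 1.94. The shares with further genes added to the Src family sum are not reported here. Without replicates 1, 2 and 3 in turn, the chi-square test called 3, 1 and 2 kinases, against 28.2, 18.6 and 23.5% of genes tested. With DESeq2 size factors or total counts it called 3, against 41.4 and 41.6% of genes tested. The order of neighbours reversed for Yes1 to Fyn without replicate 3 (log2 ratio -0.045; -0.045 to 0.0998 when 1 replicate was left out) and for Src to Fgr without replicate 1 (-0.077; -0.077 to 0.13), and the cause was not tested. With 3 libraries no sign-flip test can pass, so its p-values say nothing about stability. Depth limits Lck and Blk, for which 57 and 18 estimated counts were found over all libraries.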
